A study of Mus musculus with 3 samples.

Results

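Small leucine-rich and tendon matrix genes were examined in lower-limb skeletal muscle of control mice and of mice with an induced FoxO1 deletion in that tissue. The 10 genes are the small leucine-rich proteoglycan genes Dcn, Bgn, Aspn, Lum, Fmod and Ogn and the tendon and joint matrix genes Prg4, Tnmd, Thbs4 and Comp. They were chosen by name, with earlier results of these data known. Every array feature whose RefSeq accession belongs to 1 of them was taken. That gave 11 probes, of which 10, 1 for each gene, were well above background in both channels of all 3 arrays, so all 10 genes were tested among 17460 genes in all. The study compared control mice with mFoxO1KO mice, which carry an inducible deletion of FoxO1, a forkhead transcription factor, in skeletal muscle. There were 3 samples of each genotype, from male mice of strain C57BL/6. Each sample is called a mouse here, although the labels do not say whether animals were pooled. Between the ages of 8 and 14 weeks both genotypes ate AIN93G food with doxycycline at 0.625 g/kg, so the controls had the drug too. Each of 3 Agilent arrays of 2 colours held 1 control mouse in Cy3 and 1 mFoxO1KO mouse in Cy5. The dyes were never swapped, so a dye effect on a single probe and the genotype cannot be told apart. The labels name no single muscle and no promoter behind the deletion.

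Small leucine-rich proteoglycans are secreted proteins that bind collagen fibrils and govern their thickness and spacing. Their core is a curved stack of leucine-rich repeats, and most carry chains of chondroitin, dermatan or keratan sulfate. Prg4 encodes lubricin, which coats joint and tendon surfaces and lets them glide. Tnmd encodes tenomodulin, a membrane protein of mature tendon cells, and Thbs4 and Comp encode related thrombospondins that bind collagen in tendon, cartilage and the junction of muscle with tendon. In a whole muscle such transcripts come mostly from fibroblasts of the connective tissue sheaths and from attached tendon rather than from the muscle fibres.

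Prg4 rose in the mFoxO1KO muscle and was the only 1 of the 10 genes that passed the test. Its transcript was 1.73-fold higher, with a log2 ratio of 0.79 ± 0.20 (mean and SD over 3 arrays). The other 9 genes had mean log2 ratios between -0.20 for Aspn and 0.34 for Comp, and none of them passed. The count of 1 in 10 stands against 2.75% of all genes tested (limma, Benjamini-Hochberg adjusted p under 0.05 over all 17460). Higher calls made up 2.06% of all genes and lower calls 0.699%, and 0 of the 10 genes passed in the lower direction. A single gene past the test says nothing about the other 9. The mean ratio was above 0 for 7 of the 10 genes, against 51.8% of all genes, and their median ratio was 0.08, against 0.01 for all genes. In bulk muscle RNA, a change in the share of connective tissue cells and a change of RNA per cell cannot be told apart.

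The promoters of these genes were searched because a forkhead factor was deleted. RefSeq promoters of the GRCm38.p6 build were at hand for 6 of the 10 genes, Aspn, Bgn, Fmod, Ogn, Thbs4 and Tnmd. Among the 250 bases before the start of those genes, the forkhead motif GTAAACA, searched on both strands, was found in 0 of 6, and it was found in 3.17% of 32851 promoters of the same length. The E-box CANNTG, which reads alike on both strands and is the site type of the tendon factor scleraxis, was found in 5 of the 6, all but Tnmd, and in 66.2% of all. The promoters of Fmod and Thbs4 are shown because these genes varied most from mouse to mouse among the 6 (values follow). Fmod lies at chr1:134037004-134037253 on the plus strand and Thbs4 at chr13:92794819-92795068 on the minus strand. Both are printed 5′ to 3′ along the gene, with the E-box in capitals.
Fmod: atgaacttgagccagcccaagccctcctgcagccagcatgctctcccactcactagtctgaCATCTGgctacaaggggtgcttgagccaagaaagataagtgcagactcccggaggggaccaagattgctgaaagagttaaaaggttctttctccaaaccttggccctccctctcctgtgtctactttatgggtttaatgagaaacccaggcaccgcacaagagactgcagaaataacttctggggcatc
Thbs4: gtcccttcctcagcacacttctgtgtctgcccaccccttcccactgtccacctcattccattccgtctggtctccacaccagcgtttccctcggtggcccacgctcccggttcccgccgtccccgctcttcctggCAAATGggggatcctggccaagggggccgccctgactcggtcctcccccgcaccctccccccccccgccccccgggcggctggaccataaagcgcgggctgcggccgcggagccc
The E-box begins 189 bases before the start of Fmod and 115 bases before that of Thbs4. These matches describe the letters of the windows only.

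Data quality and the labels were checked first. The knockout channel held less Foxo1 transcript on every array, with log2 ratios of -1.50, -2.42 and -2.27 (limma, adjusted p = 0.0278, and 0.103 without array 2). A second, dimmer Foxo1 probe fell less, with -0.70, -1.64 and -1.84. Fitted on its own, that probe did not pass (limma, adjusted p = 0.0535). Whether either probe lies in the deleted part is not known here. The muscle markers Acta1, Ckm and 5 others were above background in both channels of all 3 arrays, and Myh7 on 2 arrays in control and 3 in knockout. The share of spots called well above background was 53.1% to 56.9% in Cy3 and 57.0% to 57.9% in Cy5, and 0 spots were saturated. The labels do not say how mice were matched on an array. The p-values measure the spread over 3 arrays, and that number limits the precision of every value.

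Levels are given as normalised log2 intensity of the gene's probe, comparable between mice for 1 gene but not between genes, and mice are named by genotype and array. In the controls Prg4 stood at 8.51 (array 1), 9.38 (array 2) and 8.23 (array 3). In the mFoxO1KO mice it stood at 9.09, 10.22 and 9.21 on the same arrays. The knockout mouse was higher than the control on each array, but the groups overlap, since the control of array 2 lay above 2 of the knockout mice. The ratios were 0.57, 0.83 and 0.98, with a 95% interval of 0.55 to 1.03 around the mean (limma, adjusted p = 0.0392). The spot was read at 233 to 560 units in the control channel over a local background of 37 to 40.5, and at 643 to 1414 over 49 to 54 in the knockout channel. These readings precede normalisation, and Cy5 read brighter than Cy3 for other genes too. Ogn on array 1 was read at 1259 units in Cy3 and 2046 in Cy5, at a normalised log2 ratio of -0.01. A second Prg4 probe was not well above background in either channel of any array (64 to 69 units in control, 55 to 62 in knockout) and gives no check of the first. Fitted probe by probe over 21393 probes, of which 2.77% passed, the first probe had an adjusted p of 0.0373 (limma). The Prg4 call is lost without the mice of array 2 (adjusted p = 0.158) or of array 3 (adjusted p = 0.0651), with the scanner software's processed signals (adjusted p = 0.0751), and with the channels fitted separately and the array as a random block (adjusted p = 0.0911). Of 17 alternatives 10 kept the call, and its adjusted p ran from 0.00127 to 0.322 (limma). The 17 are not all separate checks. Separate channels with the array as a fixed block repeat the reported fit, and the deposited log ratios repeat the result of the processed signals.

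**Figure D1:**
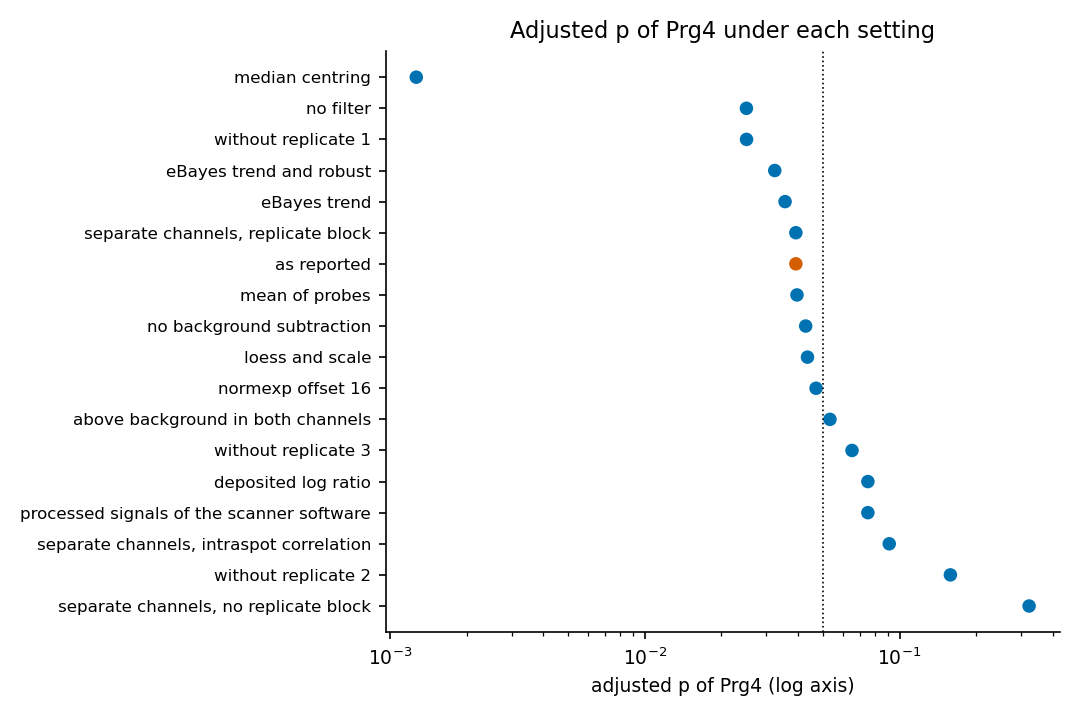
Adjusted p of Prg4 (horizontal log axis) as reported and under each of the 17 alternatives (vertical axis). It is 0.0392 as reported, and it lies above 0.05 under 7 of the alternatives.

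**Figure D2:**
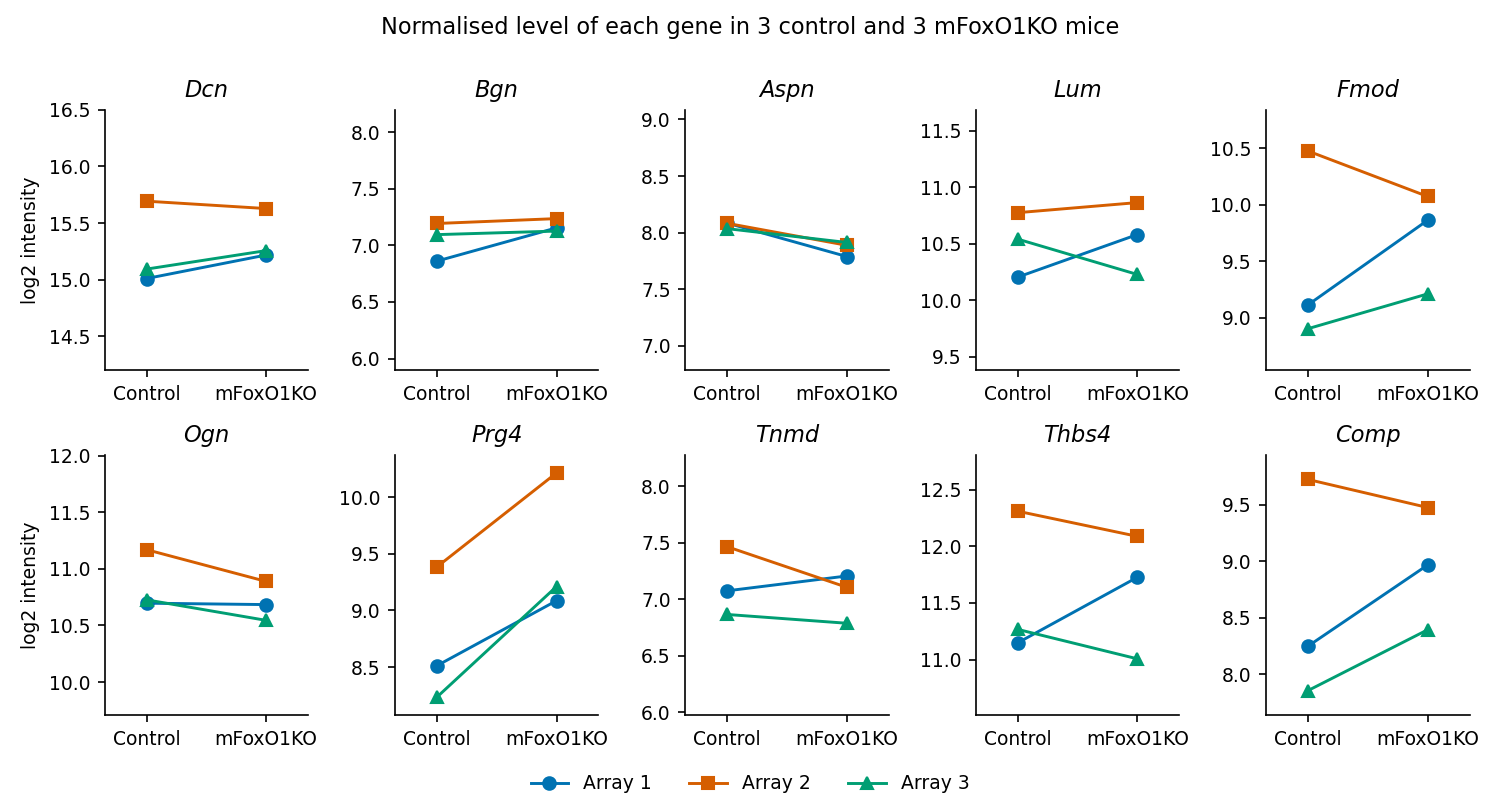
Normalised log2 intensity (vertical axes, of equal height in every panel) of the 10 genes in the control and mFoxO1KO mouse of each array, joined by a line per array. Prg4 is the gene whose 3 lines all climb steeply, from 8.23 to 9.38 in controls to 9.09 to 10.22 in knockout mice, and the mice of array 2 lie at or near the top in most panels.

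Decorin, biglycan and asporin form the first class of the family. Dcn, whose product binds collagen and TGF-beta, stood at 15.01, 15.69 and 15.09 in the controls of arrays 1, 2 and 3 and at 15.22, 15.63 and 15.26 in the knockout mice. The groups overlap, and the ratio of 0.10 ± 0.15 (SD, n = 3) had a 95% interval of -0.10 to 0.30. Bgn, the closest relative of decorin, was dim, read at 93 to 129 units in control over a background of 36 to 38.5. Its levels were 6.86, 7.19 and 7.09 in controls and 7.15, 7.24 and 7.13 in knockout mice, a ratio of 0.12 ± 0.15 with an interval of -0.08 to 0.32. Neither gene passed under any of 17 alternatives, but the size of both ratios moved with the processing. Dcn ran from 0.02 with processed signals to 0.46 with median centring (limma, adjusted p = 0.1), and Bgn from 0.04 without array 1 to 0.19 with processed signals.

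Aspn, which encodes a collagen-binding member that competes with decorin, had the lowest mean ratio of the 10. Its levels were 8.08, 8.08 and 8.03 in controls and 7.79, 7.89 and 7.91 in knockout mice. Every knockout mouse lay below every control, which held for this gene alone among the 10 and for 11.8% of all genes. The groups did not overlap in either direction for 25.8% of all genes, with the knockout above for 14%. The difference was small, with ratios of -0.30, -0.19 and -0.12, a mean of -0.20 ± 0.09 (SD, n = 3) and an interval of -0.37 to -0.04. It did not pass over all genes (limma, adjusted p = 0.132), nor under any of 17 alternatives. The ratio ran from -0.29 with processed signals to -0.07 with median centring (limma, adjusted p = 0.827). Raw readings were 201 to 232 units in Cy3 and 243 to 261 in Cy5, so Aspn was lower in knockout mice only after normalisation. At an unadjusted p under 0.05 stood 2 of the 10 genes, Prg4 and Aspn, and 26.8% of all genes.

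Lumican and fibromodulin, of the second class, carry keratan sulfate and share a binding site on collagen. Lum stood at 10.21, 10.77 and 10.54 in controls and 10.58, 10.86 and 10.23 in knockout mice. Its ratios of 0.38, 0.09 and -0.31 differed in sign between arrays, with a mean of 0.05 ± 0.35 (interval -0.31 to 0.41). Fmod varied more, at 9.12, 10.47 and 8.91 in controls and 9.86, 10.07 and 9.21 in knockout mice. The control of array 2 was the highest of all 6 mice, and the ratios were 0.75, -0.40 and 0.31, with a mean of 0.22 ± 0.58 and an interval of -0.35 to 0.79. Ogn, the third-class member known as osteoglycin or mimecan, stood at 10.70, 11.17 and 10.73 in controls and 10.68, 10.89 and 10.55 in knockout mice. Its ratios were -0.01, -0.28 and -0.18, all below 0, with a mean of -0.16 ± 0.14 (interval -0.35 to 0.03), and did not pass (limma, adjusted p = 0.244).

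The thrombospondins Comp and Thbs4 showed large differences between mice of 1 genotype. Comp, cartilage oligomeric matrix protein, stood at 8.25, 9.72 and 7.86 in controls and 8.97, 9.47 and 8.39 in knockout mice. Among controls alone the highest mouse was 3.64-fold above the lowest, while the mean ratio between genotypes, 0.34 ± 0.51 (interval -0.17 to 0.84), corresponds to 1.26-fold. Its ratios were 0.72, -0.25 and 0.54, and it did not pass (limma, adjusted p = 0.33). Its mean ratio was 0.14 without array 1, 0.63 without array 2 and 0.23 without array 3. Thbs4 stood at 11.15, 12.31 and 11.27 in controls and 11.73, 12.09 and 11.01 in knockout mice. The control of array 2 was again the highest mouse, and the ratios of 0.58, -0.22 and -0.26 gave a mean of 0.03 ± 0.47 (interval -0.44 to 0.51).

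Tnmd is the 1 gene of the 10 whose probe was printed 10 times on each array, which gives the error of reading a spot. The spots of an array share 1 labelling and hybridisation. Its levels were 7.07, 7.46 and 6.87 in controls and 7.21, 7.11 and 6.79 in knockout mice, and the groups overlap. On array 1 the 10 spots gave a mean ratio of 0.13 with an SD of 0.07 over spots, on array 2 of -0.36 with 0.08, and on array 3 of -0.08 with 0.06. All 10 spots of array 2 were below 0, as were all 10 of array 3 and 1 of 10 of array 1. The SD over the 3 arrays was 0.25. The mean of -0.10 had an interval of -0.37 to 0.17 and did not pass (limma, adjusted p = 0.573). The Tnmd signal was low, at 87 to 165 units in control over a background of 33 to 41, where the offset added in background correction draws ratios towards 0. With the scanner software's processed signals its ratio was -0.28.

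**Figure D3:**
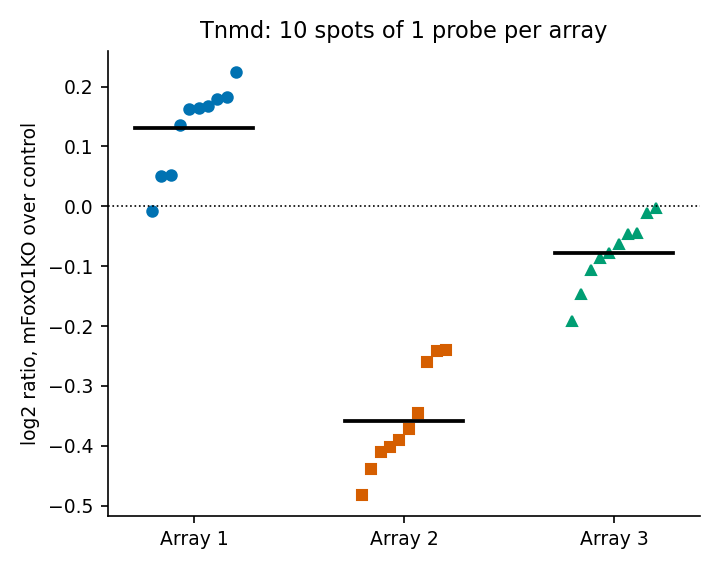
Log2 ratio of mFoxO1KO over control (vertical axis) for each of the 10 Tnmd spots on arrays 1, 2 and 3, with a bar at the mean of the spots. The means are 0.13, -0.36 and -0.08, and the spots of array 2 all lie below those of array 1.

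In order of mean log2 ratio the 10 genes ran Prg4 (0.79), Comp (0.34), Fmod (0.22), Bgn (0.12), Dcn (0.10), Lum (0.05), Thbs4 (0.03), Tnmd (-0.10), Ogn (-0.16) and Aspn (-0.20). The 95% intervals of all neighbours in this order overlap, that of Prg4 with those of Comp and Fmod included. Differences between genes were not tested. Ratios had 1 sign on all arrays for 4 of the 10, Prg4 and Bgn upward and Ogn and Aspn downward, against 52.4% of all genes. Array 1 gave the highest ratio of the 3 for 8 of the 10 genes, against 39.9% of all genes, the exceptions being Prg4 and Aspn.

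**Figure D4:**
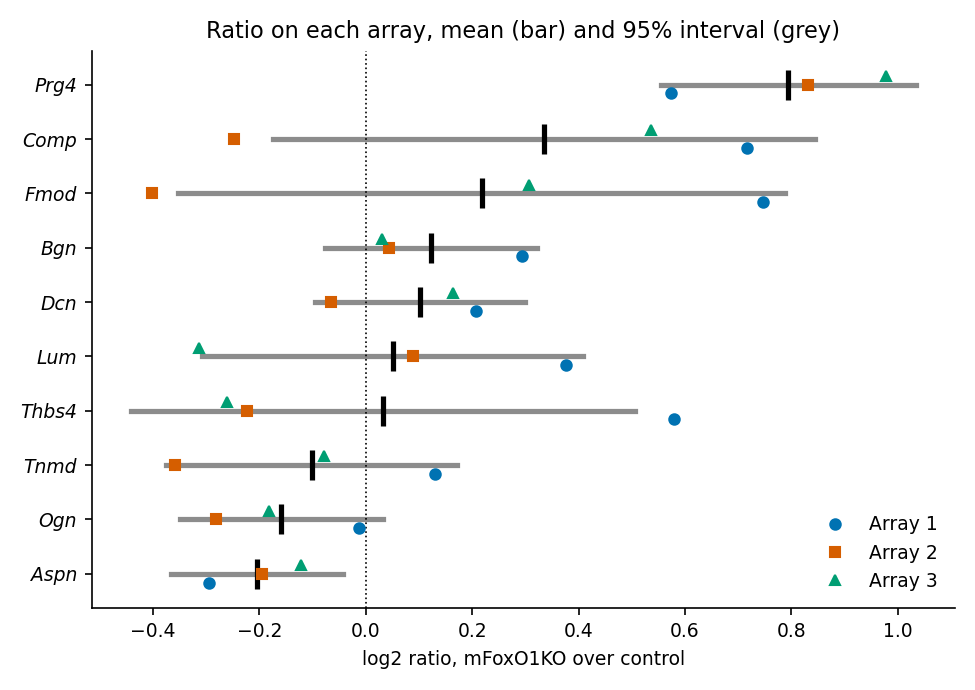
Log2 ratio of mFoxO1KO over control (horizontal axis) on each array (symbols), with the mean (black bar) and its 95% interval from limma (grey), genes ordered by mean. The interval of Prg4, 0.55 to 1.03, lies farthest from 0, and those of Comp, Fmod and Thbs4 are the widest.

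The mice of array 2 had the highest levels of most of these genes in both genotypes. Among controls, the mouse of array 2 was highest for 9 of the 10 genes, all but Aspn, against 31% of all genes tested. Among mFoxO1KO mice, the mouse of array 2 was highest for 8 of the 10, all but Tnmd and Aspn, against 24.5% of all genes. Over all genes the mouse of array 1 was highest for 34.8% in controls and 34.5% in knockouts, and that of array 3 for 34.2% and 41%. The mouse of array 2 was highest in both genotypes for 8 of the 10 and for 12.9% of all genes. With the scanner software's processed signals, each channel centred on its median, the counts were 10 of 10 controls and 9 of 10 knockouts, against 31.6% and 23% of all genes. The range over the 3 controls exceeded the median of all genes (1.15-fold) for 9 of the 10, and it was 3.64-fold for Comp, 2.97-fold for Fmod, 2.24-fold for Thbs4 and 2.22-fold for Prg4. Aspn was the exception, at 1.03-fold. Both mice of array 2 share a hybridisation, so a difference between the mice and one between the arrays cannot be told apart. Over all genes, deviations from the group mean correlated between the control and the knockout of an array with r of 0.39 to 0.45, a description across 17460 genes that are not independent.

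Other gene lists differed in how often the mice of array 2 were highest. The control of array 2 was the highest for 7 of 8 collagen genes that small leucine-rich proteoglycans bind and for 8 of 9 fibroblast markers, and the knockout of array 2 for 7 and 8 of them. The counts in controls and knockouts were 4 and 3 for 4 endothelial markers and 3 and 3 for the 3 other thrombospondins. They were 5 and 2 for 7 other leucine-rich family genes, 3 and 2 for 4 other tendon genes and 11 and 5 for 18 genes of glycosaminoglycan synthesis. For muscle fibre markers the counts were 3 and 1 of 8. They were 9 and 13 for the 17 genes of growth factors, receptors and proteases and 5 and 0 for 6 adipocyte markers. Schwann cell markers had 3 and 2 of 4, macrophage markers 1 and 3 of 3, and smooth muscle markers 1 and 1 of 3. Cartilage and bone markers had 1 and 0 of 2. The log2 of the summed intensities of the 9 fibroblast markers, which the brightest probes dominate, was 13.70 to 13.97 in controls and 13.76 to 14.29 in knockout mice. Pdgfra and Dpt were among the markers above background. The median log2 ratio of the 9 was 0.23, and none of them passed. Fbln1 had 0.37 ± 0.16, Mfap5 0.31 ± 0.14 and Ly6a 0.49 ± 0.30, the 3 with the smallest p. Of the 9, 7 had mean ratios above 0 and 2 below, Cd34 with -0.10 ± 0.07 and Pi16 with -0.03 ± 0.22. The part of fibroblast content in the Prg4 result was not tested.

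Adipocyte markers had the highest median ratio of the lists, 1.62. Of 7 markers 6 were tested, with a median log2 ratio of 2.89 on array 1, 0.21 on array 2 and 1.84 on array 3. The log2 of their summed intensities was 15.26 to 16.49 in controls and 16.61 to 17.60 in knockout mice. None passed (Cidec 2.00 ± 1.1, Retn 1.21 ± 0.85, Adipoq 1.68 ± 1.37), and leptin (Lep) was not above background. Of 17 alternatives Cidec passed in 3, Retn in 2 and Adipoq in 1, all 3 with median centring. Comp, Fmod, Dcn, Tnmd and Ogn share the order of arrays of these markers, with their highest ratio on array 1 and their lowest on array 2. Over all genes, array 1 gave the highest ratio for 39.9% and array 2 the lowest for 32.3%. The share of all genes with both was not counted, so the shared order has no background to stand against. Prg4 had its lowest ratio on array 1. The part of fat in these ratios was not tested. The other marker lists held no calls either, with the brightest probe standing for each gene. A dimmer probe of the muscle fibre marker Pvalb passed when each probe was fitted on its own, as 2.77% of probes did. Its log2 ratio was -0.53 ± 0.11 (limma, adjusted p = 0.0439), against -0.10 ± 0.09 for the brighter Pvalb probe. The median log2 ratio was 0.09 for 8 muscle fibre markers, 0.06 for 4 endothelial, 0.16 for 3 macrophage, 0.03 for 4 Schwann cell and -0.07 for 3 smooth muscle markers.

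Cartilage and bone markers were listed because joint tissue also makes Prg4 and Comp. Of 11 listed, 10 had a named probe and 2 were tested, Sox9 (0.25 ± 0.33) and Col9a1 (-0.20 ± 0.04), neither past the test. Col9a1 was above background on all 3 arrays in the control channel and on 1 in the knockout channel. The defining cartilage genes Acan, Col2a1, Matn1, Matn3, Hapln1, Col10a1 and Cnmd and the bone gene Ibsp were well above background on all 3 arrays in neither channel. The log2 of the summed intensities of the 2 measured genes was 7.95 to 8.21 in controls and 7.86 to 8.46 in knockout mice. The list covers cartilage and bone only, and the part of joint tissue in the Prg4 and Comp ratios was not tested.

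The rest of the leucine-rich family held 1 call. Of 12 further family genes 7 were tested, and Chadl, a chondroadherin-like gene whose product limits collagen fibril formation, fell by 0.50 ± 0.11 on the log2 scale (limma, adjusted p = 0.0475). Its ratios were -0.63, -0.41 and -0.46, and every knockout mouse lay below every control. It passed in 8 of 17 alternatives, with adjusted p from 0.0122 to 0.208. It was lost without array 1 (adjusted p = 0.0577), array 2 (0.161) or array 3 (0.0876) in limma, and its other probe was not above background. Ecm2 had -0.17 ± 0.05 and Podn, podocan, 0.24 ± 0.52, neither past the test. The median of the 7 was -0.11, and Epyc, Nyx, Optc and Podnl1 were not above background.

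None of the 3 other thrombospondins passed. Thbs1, an activator of latent TGF-beta, came nearest with ratios of 0.40, 0.69 and 0.87 and a mean of 0.65 ± 0.24 (limma, adjusted p = 0.0518), and it passed in 5 of 17 alternatives. Thbs2 had 0.43 ± 0.24 and Thbs3, like Thbs4 and Comp a member of the pentamer-forming branch, 0.14 ± 0.20. Of 8 further tendon genes 4 were tested and none passed. Cilp, cartilage intermediate layer protein, had 0.96 ± 0.41 (limma, adjusted p = 0.0559, past the threshold in 4 of 17 alternatives). Angptl7 had 0.26 ± 0.29, and scleraxis (Scx), the transcription factor of the tendon lineage, 0.04 ± 0.15. A second tendon factor gene, Mkx, was not above background.

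The collagens that these proteins bind did not pass. All 8 with a named probe were tested, with mean log2 ratios from -0.22 to 0.19 and a median of 0.02. Col1a2, a chain of the main fibril collagen of tendon, had 0.19 ± 0.27, Col5a1 0.14 ± 0.19 and Col3a1 -0.22 ± 0.47. Of 20 genes that build or sulfate glycosaminoglycan chains 18 were tested, with a median of 0.03. Chst11, which sulfates chondroitin, rose by 0.66 ± 0.23 on the log2 scale (limma, adjusted p = 0.049), with 0.82, 0.40 and 0.76 on the arrays and no overlap between the groups. It passed in 8 of 17 alternatives and was lost without array 1 (adjusted p = 0.0726), array 2 (0.1) or array 3 (0.101) in limma. With processed signals its ratio was 1.30 and did not pass (limma, adjusted p = 0.104). The chondroitin polymerising factor gene Chpf had 0.31 ± 0.14 and Chst14, which sulfates dermatan, -0.23 ± 0.05, neither past the test.

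Among 17 genes for growth factors that the small proteoglycans bind, their receptors and matrix proteases, all were tested and none passed, with a median of 0.10. The nearest to the threshold were myostatin (Mstn), the growth inhibitor of muscle, with 0.49 ± 0.23, the gelatinase gene Mmp2 with 0.33 ± 0.13 and Tgfb1 with 0.23 ± 0.11.

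**Figure D5:**
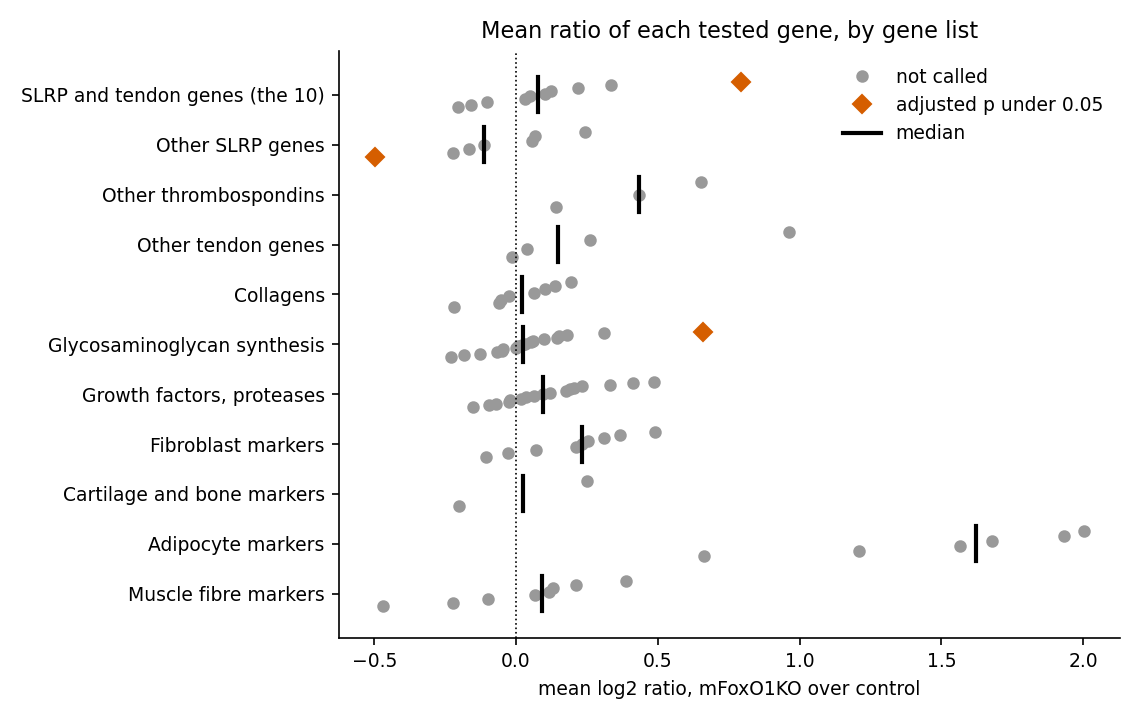
Mean log2 ratio of mFoxO1KO over control (horizontal axis) for each tested gene, 1 row per gene list, with a bar at the median of the list and diamonds for genes past the test. The diamonds are Prg4 at 0.79, Chadl at -0.50 and Chst11 at 0.66, and the adipocyte list has its median at 1.62.

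The median ratio of the 10 genes on each array was set against the ratios of every other named gene. These medians on arrays 1, 2 and 3 were 0.33, -0.21 and -0.02. Prg4 does not follow them, with 0.57, 0.83 and 0.98. Among 12985 other named genes, 5 had the smallest root mean square difference from the medians over the 3 arrays. They were Cdk8 (0.02), Gm16894 (0.02), Fbxl20 (0.02), Pisd-ps1 (0.04) and Mir22hg (0.04), none of them a matrix gene and none past the test. A close match on 3 values among so many genes has no background here and shows no link between genes.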

How the data were processed

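RNA of 3 control (Cy3) and 3 mFoxO1KO (Cy5) muscles, 0.2 µg each, was hybridised in pairs to 3 arrays of 1 slide. The deposited files hold median spot and background intensity as scanned, processed intensity, and the log10 ratio of processed Cy5 over Cy3, made with Agilent Feature Extraction (11.5.1.1 per the file headers, 9.3.2.1 per the submitters' processing notes). Normexp correction (offset 50) was followed by loess within arrays (limma 3.58.1, R 4.3.3), with control spots at weight 0 and 281 to 319 outlier spots per array left out. The scale step for levels was Aquantile. Spots of a probe were averaged, probes well above background in 1 channel on all 3 arrays (in at least 0.5 of their spots) were kept, and the brightest probe stood for a gene. Of 39429 probes 27508 (69.8%) took a symbol from the RefSeq table of GRCm38.p6, so 12995 of the 17460 genes are named. The array design names an older mouse build, so coordinates are given for the RefSeq promoters only. Log2 ratios were tested against 0 (lmFit, eBayes, two-sided) over all genes. Deviations of same-numbered mice correlated at 0.39 to 0.45, and the pairing comes from the shared array. Tested on simulated ratios for the 17460 genes, the fit recovered 43 of 50 genes changed 1.5-fold and 49 of 50 changed 2-fold, with 19 false calls. The simulated noise was normal, independent between genes and drawn with the variances that the fit had estimated. It held no dye effect and no array effect shared by genes, so it does not measure how many real changes the fit misses.

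The 10 genes and the lists were chosen with earlier results of these data known. Named outside the 10 are Foxo1, up to 3 genes of each list by smallest p, all called genes of the leucine-rich, thrombospondin, tendon and collagen lists, and the 5 nearest profiles. List genes named only as measured or as below background were added for completeness. Alternatives covered background, signal, normalisation, filter, probe choice, variance model, pairing and each array left out.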

Additional observations from a re-analysis of the deposited data

How the results depend on the processing

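Prg4 kept its direction under all 17 alternatives, with log2 ratios of 0.70 to 0.97, and the other 9 genes passed under none of them. The count of the 10 genes past the threshold was 1 in the report and 0 with the processed signals, with the deposited log ratios (adjusted p of Prg4 0.0751 in both), with probes above background in both channels (0.0533), with separate channels and no replicate block (0.322) and, in an alternative added after the data were seen, with the replicate block as an intraspot correlation (0.0911). It was 0 to 1 with 1 array left out, lost without replicate 2 and without replicate 3. With the array as a fixed replicate block the fit equals that of the ratios (481 genes, adjusted p of Prg4 0.0392). The median ratio of the 10 genes was -0.08 to 0.17 with 1 array left out.

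Over all genes, 481 passed. The count was 253 with a normexp offset of 16, 212 with processed signals and with deposited log ratios, 1205 with median centring, 842 with scaling after loess, 747 with no filter, 55 with both channels above background, 216 with no replicate block, 1652 with the intraspot correlation and 50 to 434 with 1 array left out. Of the calls, 74.6% were higher in the report and 95.8% with median centring, which moved the median of all genes to 0.16, 63.1% with the intraspot correlation and 94% without replicate 2. Relative to that median Prg4 had 0.81.

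Ratios near 0 changed sign. Ogn had 0.051 with median centring, Thbs4 -0.021 with scaling, and Scx -0.011 with processed signals and with deposited log ratios. With 1 array left out Comp stayed above 0, from 0.14 to 0.63, and Fmod ranged from -0.047 to 0.53, Lum from -0.11 to 0.23, Thbs4 from -0.24 to 0.18, Tnmd from -0.22 to 0.027, Podn from -0.043 to 0.47, Col3a1 from -0.42 to 0.040 and Scx from -0.025 to 0.12. A fit on mean spot signals was not run, since the analysis had median signals only. Bgn and Tnmd lie close to background, which limits their ratios most.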
